A study of Mus musculus with 2 samples.

Results

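The genes described here are 9 of the Sonic hedgehog pathway: the ligand Shh, its receptor Ptch1, the signal transducer Smo, the transcription factors Gli1, Gli2 and Gli3, the ligand-binding inhibitor Hhip and the co-receptors Boc and Gas1. They were taken by symbol, and all 9 were matched by Ensembl identifier among 43346 mouse genes in the deposited gene tables. RNA-seq libraries were made from total RNA of the neural tube, the forerunner of brain and spinal cord, of B6NCrl mouse embryos at embryonic day 12.5. There is 1 group of 2 biological replicates, with no treatment, mutant or second stage. Replicate 1 pooled 120 healthy embryos of both sexes and replicate 2 pooled 88, so that variation between embryos is averaged within a library and not measured. Input RNA was 10 ng, above 200 nucleotides in size, with spike-in controls, and the pools share 1 donor identifier in the labels. Mouse genes held 31610805 estimated reads in replicate 1 and 33530172 in replicate 2. With 1 group, values compare genes within a tissue or 1 library with the other, and no p-value is given.

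Hedgehog ligand is made by the notochord and then by the floor plate, the ventral midline of the neural tube, and spreads dorsally as a gradient. Without ligand, Ptch1 keeps Smo inactive, and Gli3 and Gli2 are processed to repressors. Ligand bound to Ptch1, helped by Boc, Gas1 and Cdon, frees Smo, which acts in the primary cilium so that Gli proteins become activators. Ptch1, Hhip and Gli1 are themselves targets of the pathway, and Ptch1 and Hhip limit it by taking up ligand. In the spinal cord the gradient sets the domains of progenitors of the ventral interneurons and motor neurons. Shh is also made by motor neurons, and the other hedgehog ligands act outside the neural tube, Dhh in Schwann cells and Ihh in cartilage and gut.

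All 9 genes reached 1 TPM in both libraries, where TPM is transcript abundance corrected for length and depth. Among all mouse genes 35.0% did so, and among protein-coding genes 62.1%. The median of the 9 was 15.6 TPM in replicate 1 and 14.4 TPM in replicate 2. Levels spanned from 2.62 TPM for Shh in replicate 2 to 139 TPM for Gas1 in replicate 2. Below, a mean ± SD is over the 2 libraries, and the deposited interval is the authors' credibility interval for TPM, whose level is not stated.

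**Figure D1:**
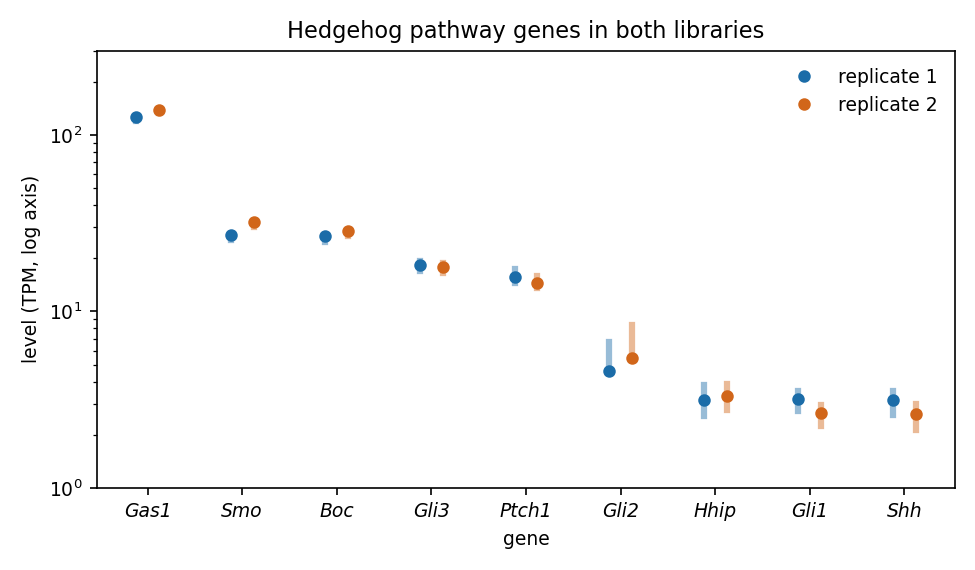
TPM (log axis) of the 9 genes in replicate 1 (blue) and replicate 2 (orange), ordered by mean, with points for the deposited TPM and bars for the deposited interval. Gas1 stands alone at 126 and 139 TPM, and Hhip, Gli1 and Shh lie together between 2.62 and 3.31 TPM.

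Shh (ENSMUSG00000002633, chromosome 5, 28456815 to 28467256, minus strand) was the lowest of the 9. It had 3.15 and 2.62 TPM in replicates 1 and 2, from 163 and 140 estimated reads (2.89 ± 0.375 TPM). Of protein-coding genes detected in both libraries, 10.0% were lower. The deposited intervals overlapped, at 2.60 to 3.55 TPM and 2.12 to 2.97 TPM. Among the other ligands, Dhh had 2.11 and 2.29 TPM and Ihh 0.23 and 0.20 TPM, the latter from 11 and 9 reads. Shh made up 57.4% and 51.3% of the TPM of the 3 ligands, and Dhh 38.4% and 44.8%. Shh was above Dhh in both libraries, by 0.28 ± 0.20 on the log2(TPM + 1) scale, and the TPM values of the 2 genes did not overlap. In replicate 2, however, the deposited interval of Shh (2.12 to 2.97 TPM) held the TPM of Dhh (2.29). Dhh is also in the list of Schwann cell and neural crest genes, all 8 of which were detected.

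Markers of the tissues that make the ligand were present at unequal levels. Leaving out Shh, which is itself in the floor plate and notochord lists, 8 of 9 floor plate markers reached 1 TPM in both libraries, with a summed level of 179 and 182 TPM. The highest were Spon1 (71.8 and 72.9 TPM), an extracellular matrix gene, and the guidance cue Ntn1 (39.2 and 39.6 TPM), which progenitors outside the floor plate also express. Foxa2, the factor that defines the floor plate, stood at 2.59 and 2.51 TPM, close to Shh; it was chosen after its values were seen. Of 7 notochord markers, again without Shh, 6 were detected. Among them Foxa2 is also in the floor plate list and Col2a1 in the cartilage list. The count alone therefore does not show that notochord was in the tissue. Noto, a factor of the notochord, had 0 reads in both libraries, which allows up to 0.0949 and 0.0895 CPM (reads scaled to a common total of mouse gene reads). After the collagen gene Col2a1, the highest notochord marker was the keratin gene Krt8 (4.86 and 6.16 TPM). The notochord factor T, chosen after its values were seen, had 1.66 and 1.06 TPM.

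Ptch1 (ENSMUSG00000021466, chromosome 13, 63508328 to 63573598, minus strand), the receptor and target gene, had 15.6 and 14.4 TPM from 2009 and 1999 reads (15.0 ± 0.841 TPM). It stood 5.22-fold above Shh as a geometric mean of the ratios in both libraries. Hhip (ENSMUSG00000064325, chromosome 8, 79965851 to 80058006, minus strand), which binds ligand at the cell surface, had 3.16 and 3.31 TPM from 230 and 260 reads (3.24 ± 0.106 TPM). Of the genes that limit ligand spread, Ptch1 was above Hhip in both libraries, by 2.00 and 1.84 on the log2(TPM + 1) scale.

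The transducer Smo (ENSMUSG00000001761, chromosome 6, 29735503 to 29761365, plus strand) had 27.2 and 32.3 TPM (29.8 ± 3.59 TPM), from 1993 and 2454 reads. Its level was above that of Ptch1 in both libraries, by 0.77 and 1.11 on the log2(TPM + 1) scale. In reads, which are not corrected for length, the order differed in replicate 1 only, with 2009 for Ptch1 against 1993 for Smo. In replicate 2 Smo had 2454 reads and Ptch1 1999.

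Of the co-receptors, Gas1 was the highest of the 9 genes and Boc stood near Smo. Gas1 (ENSMUSG00000052957, chromosome 13, 60174405 to 60177365, minus strand), a surface protein anchored by a lipid and encoded by a single exon, had 126 and 139 TPM from 7178 and 8222 reads (133 ± 9.23 TPM). It exceeded 91.0% of detected protein-coding genes. Boc (ENSMUSG00000022687, chromosome 16, 44485049 to 44558897, minus strand), an immunoglobulin-family receptor, had 26.6 and 28.6 TPM from 2292 and 2554 reads (27.6 ± 1.39 TPM). Its relative Cdon stood at 7.61 and 6.86 TPM and the endocytic receptor Lrp2 at 1.1 and 1.13 TPM. Of the TPM of these 4 co-receptors, Gas1 made up 78.7 ± 0.759%, Boc 16.4 ± 0.159%, Cdon 4.31 ± 0.573% and Lrp2 0.662 ± 0.0271%. By reads the share of Gas1 was 70.4% and that of Boc 22.2%.

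Gli3 was the most abundant of the Gli genes in both libraries. Gli3 (ENSMUSG00000021318, chromosome 13, 15463235 to 15730026, plus strand), which acts mainly as the repressor, had 18.3 and 17.8 TPM from 1988 and 2111 reads (18.1 ± 0.361 TPM). Gli2 (ENSMUSG00000048402, chromosome 1, 118834132 to 119053619, minus strand), the main initial activator, had 4.61 and 5.46 TPM from 590 and 696 reads (5.04 ± 0.601 TPM). Gli1 (ENSMUSG00000025407, chromosome 10, 127329882 to 127341974, minus strand), an activator made in response to the signal, had 3.19 and 2.66 TPM from 226 and 196 reads (2.93 ± 0.375 TPM). The 3 genes kept this order in both libraries, and their values did not overlap. Gli3 made up 69.4 ± 1.03% of Gli TPM, Gli2 19.3 ± 2.41% and Gli1 11.2 ± 1.38%.

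On the log2(TPM + 1) scale Gli3 exceeded Gli1 by 2.21 in replicate 1 and 2.36 in replicate 2 (2.28 ± 0.11). With nothing added to TPM, the geometric mean of the ratios in both libraries was 6.20-fold. The next differences are again on the log2(TPM + 1) scale. Gli3 exceeded Gli2 by 1.66 ± 0.17. Gli2 exceeded Gli1 by 0.42 and 0.82 (0.62 ± 0.28), the least even of the 3 differences between the libraries. The levels are of RNA, and how much of each protein was in an activator or a repressor form was not measured.

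Reads of the Gli genes can be told apart only where their sequences differ. The following coding stretches encode the same part of the zinc-finger region in each gene (GENCODE M21, GRCm38, written in the sense of the gene), and capitals mark the bases shared by all 3. Gli1 lies at chr10:127336041-127336100 on the minus strand, Gli2 at chr1:118845995-118846054 on the minus strand and Gli3 at chr13:15713511-15713570 on the plus strand, each within 1 exon.
Gli1: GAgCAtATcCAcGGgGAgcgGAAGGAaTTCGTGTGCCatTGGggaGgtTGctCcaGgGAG
Gli2: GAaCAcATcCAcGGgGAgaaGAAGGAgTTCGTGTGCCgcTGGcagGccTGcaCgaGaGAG
Gli3: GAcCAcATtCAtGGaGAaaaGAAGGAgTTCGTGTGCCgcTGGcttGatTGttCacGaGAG
Of the 60 positions 39 were the same in all 3 genes. Gli2 and Gli3 shared 47 bases here, Gli1 and Gli2 45, and Gli1 and Gli3 41. The longest stretch that the full coding sequences of Gli2 and Gli3 had in common was 25 bases, aagaaggagttcgtgtgccgctggc, inside this window. For Gli1 and Gli2 the longest was 23 bases and for Gli1 and Gli3 14 bases. Boc and Cdon shared at most 31 bases, and Shh 17 with either Dhh or Ihh. All these are shorter than the 99 nucleotides by which the deposited effective length of Shh falls below its length. Counting by strand is not stated in the sources used here. Exons of Gli1 overlapped those of Arhgap9 on the other strand by 62 bases (1.56 and 1.36 TPM for Arhgap9), and exons of Shh overlapped those of Gm26894, a noncoding gene on the other strand, by 361 bases (0.36 and 0.28 TPM). Exons of Gli3 overlapped those of Gm6556 by 188 bases (0.94 and 0.68 TPM) and exons of Hhip those of Gm27820 by 175 bases (0.27 and 2.75 TPM). Further overlaps joined Gas1 with Gm48488 (589 bases), Shh with 9530036O11Rik (446 bases, 0.02 and 0 TPM) and Gli1 with Gm47200 (265 bases). Gm48488 and Gm47200 are not among the deposited genes, so they have no level here. The partners with levels were chosen after these were seen, and without strand the reads of such overlaps cannot be told apart.

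The order of the 9 means was Gas1, Smo, Boc, Gli3, Ptch1, Gli2, Hhip, Gli1 and Shh. Neighbouring genes had values that did not overlap between Gas1 and Smo, Boc and Gli3, Gli3 and Ptch1, Ptch1 and Gli2, and Gli2 and Hhip. Values overlapped between Smo and Boc, Hhip and Gli1, and Gli1 and Shh, so these neighbours did not differ beyond the spread of the libraries. Within each library, Smo was nonetheless above Boc and Gli1 above Shh in both, while Hhip was above Gli1 in replicate 2 and below it in replicate 1. In CPM, which is not per length, Gli3 and Ptch1 also overlapped, while Hhip, Gli1 and Shh separated in that order.

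Shh and Gli1 had nearly the same value in each library, 3.15 and 3.19 TPM in replicate 1 and 2.62 and 2.66 TPM in replicate 2. By distance in log2(TPM + 1) over the 2 libraries, Gli1 was the third nearest of all protein-coding genes to Shh (0.021), after Zfp770 (0.013) and Fhod3 (0.014). For Gli1 the nearest was Shh, followed by Bmp2 (0.032) and Zfp770 (0.033). Within a distance of 0.1 lay 43 genes for Shh, 41 for Gli1 and 129 for Ptch1, whose nearest were Zbtb9, Dync2h1 and Rptor. Over 2 libraries such likeness describes level alone.

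Most members were represented by 1 transcript, and Ptch1 and Gli3 by several. Shh, Smo, Gli1 and Gas1 have a single transcript in the tables, and the leading transcript of Boc (ENSMUST00000023370, which has no entry in GENCODE M21) held 100% and 98.6% of its TPM. For Ptch1, 3 of 8 transcripts held at least 5% of TPM in both libraries. A coding transcript of 24 exons (ENSMUST00000192155, the leading form below) held 62.9% and 72.1% (9.82 and 10.4 TPM). A coding transcript of 23 exons (ENSMUST00000021921, the longer coding form below) held 16.7% and 13.7% (2.60 and 1.98 TPM). A form annotated as a target of nonsense-mediated decay (ENSMUST00000194663) held 10.7% and 8.37%. In replicate 2 the share of the leading form was higher and those of both others lower, and the authors' intervals for the TPM of each form overlapped between the libraries.

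These Ptch1 transcripts differ in their first exons. On chromosome 13 the longer coding form begins at 63565735, the leading form 1200 bases further along the gene at 63564535, and the decay target 7725 bases before the longer coding form at 63573460. The coding sequence of the leading form (3891 bases, 1297 codons without the stop) is identical to the end of that of the longer coding form (4302 bases, 1434 codons), which has 411 more bases at its start. The first 60 coding bases of each (GENCODE M21, GRCm38) are shown, since the forms differ in where coding begins, with the start codon in capitals. In the longer coding form they lie at chr13:63565461-63565520 in exon 1 and in the leading form at chr13:63548067-63548126 in exon 3, both on the minus strand.
longer coding form: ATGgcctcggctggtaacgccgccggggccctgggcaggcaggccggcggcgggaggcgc
leading form: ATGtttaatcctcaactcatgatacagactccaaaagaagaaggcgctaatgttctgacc
The longer coding form was the less abundant in both libraries, and their intervals were far apart (8.24 to 10.4 against 1.84 to 3.46 TPM in replicate 1).

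Gli3 was divided among 3 of its 4 transcripts. The form with the complete coding sequence of 4749 bases (ENSMUST00000110510) held 54.4% and 59.3% of TPM (9.98 and 10.6 TPM). A form annotated as incomplete, whose 1789 coding bases equal the start of the complete one (ENSMUST00000130065), held 24.4% and 21.4%. A form that retains an intron and has no coding part (ENSMUST00000130535) held 21.2% and 19.3%. By reads the complete form held 80.5% and 83.4%, because the others are shorter (2004 and 2915 against 8170 nucleotides). The TPM of Gli3 as a gene is a sum in which the shorter transcripts have more weight than in reads.

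The same holds for Hhip and for a short Ptch1 transcript. The coding form (ENSMUST00000079038) held 77.3% and 81.3% of Hhip TPM, and a noncoding transcript of 909 nucleotides held 22.7% and 18.7% from only 11.6 and 10.4 reads. A Ptch1 transcript of 305 nucleotides held 7.56% and 3.70% of TPM from 4.83 and 2.27 reads. For Gli2, the leading form (ENSMUST00000062483) held 98.0% and 93.3% of TPM, and 6 of its 9 transcripts were at 0 in both libraries. In the authors' posterior mean its share was 73.0% as the mean of both libraries, and in replicate 1 the deposited interval of the gene (4.81 to 6.68 TPM) lay above its TPM of 4.61, as did that of replicate 2 (5.67 to 8.40 against 5.46 TPM). With the leading transcript alone, a measure chosen after seeing the data, mean TPM was 10.3 for Gli3, 10.1 for Ptch1 and 2.57 for Hhip, so that Hhip stood below Gli1 and Shh.

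**Figure D2:**
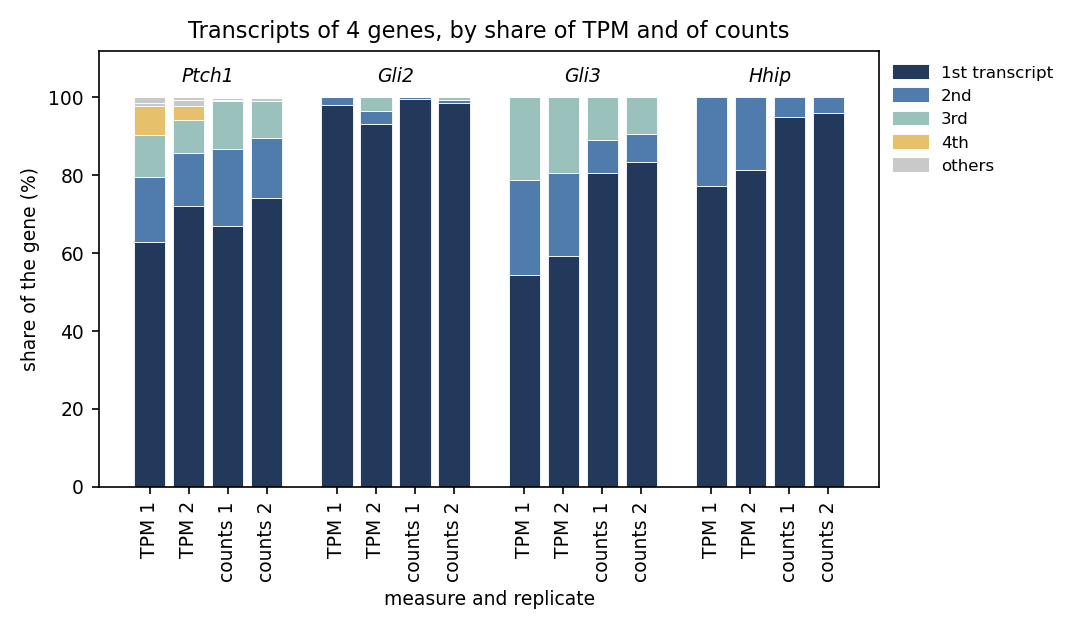
Share (%) of each transcript in Ptch1, Gli2, Gli3 and Hhip, stacked from the leading transcript up, by TPM and by reads in replicates 1 and 2. The leading transcript holds more of the reads than of the TPM in all 4 genes, most clearly in Gli3 (80.5% against 54.4% in replicate 1).

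Promoter sequence was at hand for 6 of the 9 genes, Ptch1, Smo, Gli2, Gli3, Hhip and Gas1 (RefSeq, GRCm38.p6, 250 bases before to 50 after the start). The window of Ptch1 is placed on the first base of the longer coding form, which was not the leading transcript, and that of Gli3 on the first base of the form that retains an intron. The window of Gli2 is on the first base of its leading transcript. Those of Smo, Hhip and Gas1 are not on the first base of any GENCODE M21 transcript of the gene. The 250 bases before the start are shown for Ptch1 (chr13:63565736-63565985, minus strand) and Hhip (chr8:80058009-80058258, minus strand), the members that are both targets of the pathway and ligand traps, with CG pairs in capitals.
Ptch1: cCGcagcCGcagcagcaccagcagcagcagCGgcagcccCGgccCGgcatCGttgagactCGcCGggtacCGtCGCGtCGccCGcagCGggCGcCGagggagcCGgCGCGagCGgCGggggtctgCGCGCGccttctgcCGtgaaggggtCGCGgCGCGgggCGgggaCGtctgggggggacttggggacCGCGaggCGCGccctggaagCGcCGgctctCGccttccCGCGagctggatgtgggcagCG
Hhip: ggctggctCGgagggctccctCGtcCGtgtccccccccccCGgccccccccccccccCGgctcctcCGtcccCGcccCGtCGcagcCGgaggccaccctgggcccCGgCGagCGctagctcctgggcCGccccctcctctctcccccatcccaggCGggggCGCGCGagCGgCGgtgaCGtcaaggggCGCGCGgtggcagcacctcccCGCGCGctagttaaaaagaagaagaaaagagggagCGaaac
Both are rich in CG pairs. The full Ptch1 window held 47 and that of Hhip 30, against a median of 7 over 32851 windows of the same length, and 98.6% and 88.3% of windows held fewer. Gli3 had 39, Gli2 28, and Smo and Gas1 17 each. The Gli binding motif GACCACCCA, searched on both strands, was in 0 of the 6 windows and in 0.253% of all windows, and the looser GACCNCCCA, which includes it, in 0 of 6 and 0.977%. With motifs this rare over all windows, 0 of 6 does not set the members apart from other genes. These letters are absent from these windows only, and enhancers further away were not searched.

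Between the pools the 9 genes differed little. None was over 2-fold apart on the log2(TPM + 1) scale, where 1.43% of the 15735 genes tested (those whose mean reached 1 TPM) were. In replicate 2, 5 members were higher and 4 lower, with a median log2 ratio (replicate 2 over replicate 1) of 0.05 against 0.03 over all genes tested, of which 41.2% were lower. The deposited intervals did not overlap for 2 of 9 members, Smo and Gas1, where 14.3% of all genes tested had intervals apart. The exact 95% interval of the count ratio, which covers counting error alone, left out 0 for 4 of 9, against 33.4% of all genes, so the 4 of 9 are near the background.

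Smo and Gas1 were higher in replicate 2. Smo had a log2 count ratio of 0.22 (0.13 to 0.30) and Gas1 one of 0.11 (0.07 to 0.16). Deposited intervals were 25.3 to 27.6 and 30.2 to 32.7 TPM for Smo, and 120 to 125 and 132 to 138 TPM for Gas1, whose TPM of 126 and 139 lie just above them. Ptch1 and Gli1 were lower in replicate 2, with log2 count ratios of -0.09 (-0.18 to -0.0022) and -0.29 (-0.57 to -0.0081), both close to 0 at 1 end. Shh had a ratio of -0.30 (-0.64 to 0.03), which at its depth of 163 and 140 reads was not distinguishable from 0. The ratios of Gli2 (0.15, -0.0070 to 0.31), Hhip (0.09, -0.17 to 0.35), Boc (0.07, -0.01 to 0.15) and Gli3 (0.00, -0.09 to 0.09) had intervals that held 0.

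**Figure D3:**
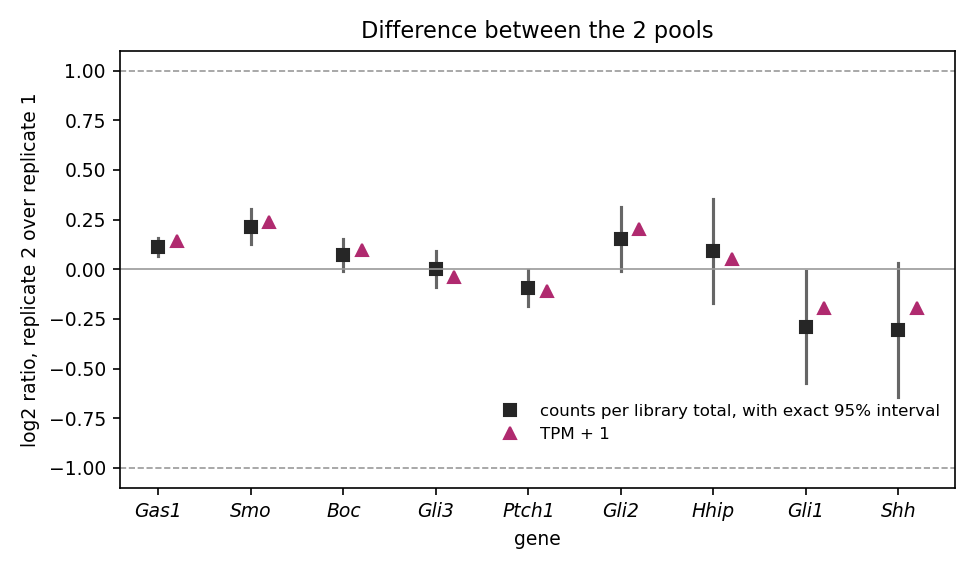
Log2 ratio of replicate 2 over replicate 1 for the 9 genes, from counts per library total (squares, with exact 95% intervals for counting error) and from TPM + 1 (triangles); dashed lines mark 2-fold. All points lie well inside 2-fold, with Smo highest (0.22 by counts) and Shh lowest (-0.30).

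Several lists of markers, for cell types of the neural tube and for other tissues, also differed between the pools. Genes said to lead a list are its highest in level. Counts are of genes with a mean of 1 TPM or more. Of all 15735 such genes, 9204 were higher in replicate 2 and 41.2% lower, and 14.3% had deposited intervals apart. All 8 such sclerotome and cartilage markers, of 12 in the list, were lower in replicate 2 (summed level over the list 346 and 315 TPM), led by Col2a1 (160 and 151 TPM) and the factor Sox9 (102 and 100.5 TPM), with the cartilage genes Matn1 (0.24 and 0.51) and Matn3 (0.85 and 0.58) under 1 TPM. Col2a1 and Sox9 differed little, while Pax1, chosen after its values were seen, differed more (14.5 and 9.21 TPM). Also lower were all 9 tested muscle and somite markers of 10 (388 and 282 TPM), led by the actin genes Actc1 (131 and 88.0 TPM) and Acta1 (64 and 46.1 TPM), with Myf6 (0.88 and 0.21 TPM) under 1 TPM, and 5 of 6 tested notochord markers other than Shh (176 and 167 TPM, mostly Col2a1, which cartilage shares). All 9 sensory ganglion markers (426 and 590 TPM) were higher, led by the intermediate filament gene Prph (84.2 and 132 TPM) and the factor Pou4f1 (95.2 and 120 TPM), as were 7 of 8 Schwann cell and neural crest markers (1546 and 1630 TPM, mostly Fabp7, which neural progenitors share). Motor neuron markers went both ways, with 5 of 8 lower, while their sum was 277 and 351 TPM, led by Isl1 (110 and 156 TPM) and Prph, which sensory ganglia also express. Of 9 floor plate markers other than Shh 5 were higher and 4 lower, near the 41.2% lower over all genes. Of 10 pan-neuronal markers 9 were higher in replicate 2 (3440 and 3825 TPM in sum), and the deposited intervals of 7 were apart upward and of 1 downward. Whether the genes of a list, those of sensory ganglia included, are expressed in that tissue alone was not tested. A list sum is therefore not an amount of that tissue. The part of these tissues and cell types in the differences of Shh, Ptch1, Gli1, Smo and Gas1 was not tested. In such bulk tissue fewer cells of a type and less RNA per cell cannot be told apart.

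Of the remaining marker lists, the 10 neural progenitor genes (led by Fabp7 and Vim) and the 10 pan-neuronal genes (led by Tubb3 and Nefl) were all detected, with medians of 42.8 ± 0.438 and 313 ± 22.8 TPM, so the defining markers of the labelled tissue were present. Meningeal and pericyte markers (10 of 10, median 38.4 TPM, led by the collagen genes Col3a1 and Col1a1) and erythroid markers (8 of 8, median 21.8 TPM, led by the globin genes Hbb-y and Hba-a1) were detected too. Of endoderm and gut markers 7 of 9 were detected (median 2.55 TPM, led by Sox17 and Apoa2), with the gut factor Cdx2 at 0 reads in both libraries. Foxa2, whose values give this median, and Foxa1 are also in the floor plate list. Smo, Gas1, Ptch1 and the Gli genes are also used by mesenchyme, so the levels above are sums over all cells in the tissue.

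The rest of the pathway was broadly present. Of 47 further genes for ligand release, reception, Gli regulation and cilia, 46 reached 1 TPM in both libraries, all but Ihh. None of the 46 was over 2-fold apart between the pools, and the deposited intervals of 8 did not overlap, 4 higher and 4 lower in replicate 2. That is 17.4%, near the 14.3% of all genes tested, of which 1.43% were over 2-fold apart. For ligand release all 9 genes were detected (median 11.0 ± 0.141 TPM), the highest being the glypican Gpc3 at 251 TPM in both libraries and the protease Adam17 at 23.4 and 25.3 TPM. Chosen after their values were seen, Hhat, which attaches palmitate to the ligand, had 5.74 and 5.86 TPM, and Disp1, which releases it, 9.94 and 9.41 TPM.

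Regulators of Gli proteins were higher, with a median of 22.0 ± 2.38 TPM over 20 genes. They were led by genes with many other uses, the protein kinase A subunit Prkar1a (374 and 376 TPM) and the casein kinase Csnk1a1 (275 and 252 TPM). Sufu, which holds Gli proteins in the cytoplasm, had 30.3 and 29.5 TPM, and the ciliary kinesin Kif7 5.12 and 4.97 TPM; these genes, too, were picked with their values in view. All 13 genes of intraflagellar transport and the cilium were detected (median 14.9 ± 0.481 TPM), led by the kinesin Kif3a (124 and 116 TPM) and Ift52 (38.3 and 39.9 TPM).

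By list median, transcription factors of neural progenitors that hedgehog induces stood below those it represses. The 8 induced factors had a median of 2.56 and 2.81 TPM and the 8 repressed ones of 17.0 and 14.3 TPM. The difference of medians on the log2(TPM + 1) scale was -2.31 in replicate 1 and -1.97 in replicate 2 (-2.14 ± 0.24). The middle of the induced list, from its lower to its upper quartile, lay at 2.20 to 5.38 TPM, and that of the repressed list at 8.74 to 24.0 TPM. Between the pools, 6 of 7 tested induced factors and 5 of 8 repressed ones were lower in replicate 2, against 41.2% of all genes tested. Highest among the induced were the ventral homeobox genes Nkx6-2 (11.4 and 8.60 TPM) and Nkx6-1 (10.1 and 8.93 TPM), and Nkx2-9 stayed under 1 TPM (0.30 and 0.29). Highest among the repressed were Pax3 (36.8 and 37.6 TPM) and Msx1 (31.9 and 41.8 TPM), both dorsal factors that other embryonic tissues also express. The repressed Pax7 (2.20 and 1.88 TPM) and Dbx2 (1.74 and 2.55 TPM), chosen after their values were seen, lay below the induced median in both libraries.

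**Figure D4:**
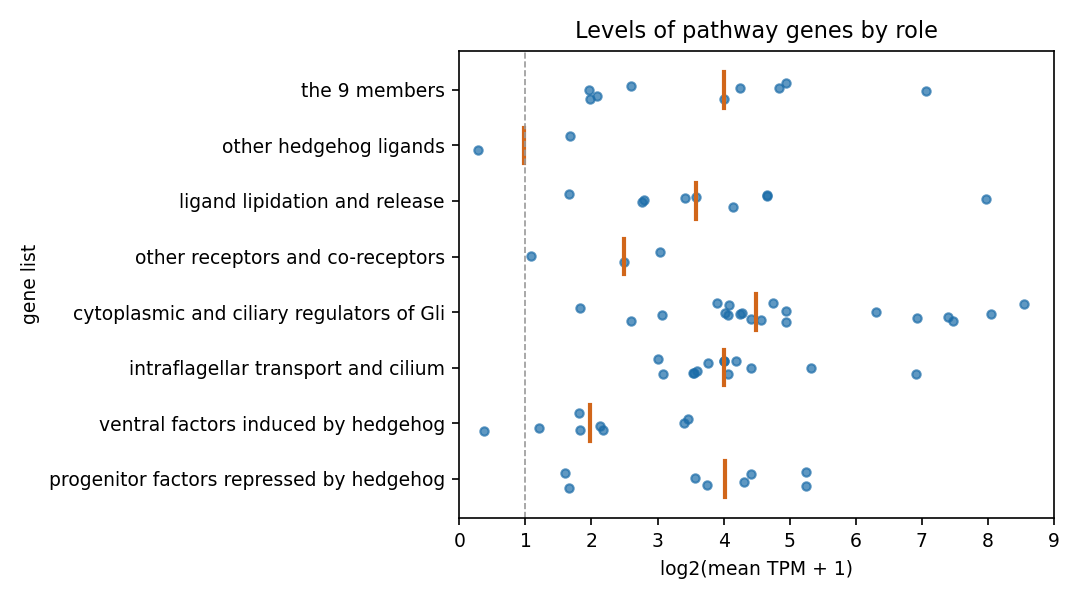
Log2(mean TPM + 1) of each gene (points) by role, with the list median (orange bar) and 1 TPM (dashed line). The mean of the list medians of both libraries was 15.0 TPM for the 9 genes. It was 2.68 TPM for the induced ventral factors and 15.6 TPM for the repressed factors. The bars are medians of the mean levels shown and can lie slightly off these values.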

How the data were processed

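Gene and transcript tables, 1 pair for each library, were taken as the authors deposited them, with assembly mm10 and annotation GENCODE M4 per the deposited read-me text; the quantifying program and its use of strand are not given in the sources used here. Each expected count, per the file headers, is an estimate of reads that need not be whole. TPM as deposited sums over all rows, of which 26248 named by a number and 97 spike-in rows were left out here. The percent values that the authors deposited give a transcript's part of the TPM of its gene. The series title marks these data as superseded by a later series, not used here. Names, positions and transcript models come from GENCODE M21 on GRCm38, by identifier without version (42462 of 43346 genes); the models of Shh, Gli1, Hhip and Boc differ in length from the deposited ones.

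Ratios are on the log2(TPM + 1) scale. Count ratios used rounded counts over mouse gene totals with exact (Clopper-Pearson) 95% intervals, for counting error only. TMM factors (edgeR 4.0.16) and size factors (DESeq2 1.42.0) gave alternative scalings. Scripts (Python 3.11.15) were tested on simulated data. The labels give separate pools, yet n = 2 measures only their spread.

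The members and lists were chosen with earlier results of these data known. Named are all members, all other ligands and receptors, the 2 highest genes of other lists, up to 3 of their genes under 1 TPM, and the 3 genes nearest in level to Shh, Ptch1 and Gli1; some genes that this rule names are not reported here. Of 162 listed genes outside the members 160 were matched; the others, Fu and Drgx, are older or newer names of the listed Stk36 and Prrxl1.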

Additional observations from a re-analysis of the deposited data

How the results depend on the processing

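All 9 members stayed at or above 0.5 TPM and 10 reads in both libraries, while 5 reached 5 TPM in both. No member was over 2-fold apart with 0.1 added to TPM, with TMM-scaled or DESeq2-scaled values, or without the filter on low values; by deposited intervals that do not overlap, 2 were apart. The excess of Gli3 over Gli1 was 2.63 with nothing added to TPM and 3.10 in CPM with 1 added, and ran from 2.21 to 2.36 when either library was left out. The induced factors lay below the repressed ones by -1.68 with list means, and from -2.31 to -1.97 when either library was left out. For both contrasts, leaving out 1 library only returns the value of the other, so those settings are no check. All 36 log2 ratios of members under other pseudocounts or scalings moved by less than the counting error, and that of Gli3 lies at 0 within it. The cause of the moved differences of lists was not tested. Member levels moved by more than 1 SD in 18 of 54 alternatives, including all 9 in CPM, a unit that is not per length. Leaving out 1 of 2 libraries cannot shift a mean by 1 SD. So the 9 settings without replicate 1 and the 9 without replicate 2 could only count as unmoved. With the leading transcript alone, chosen after seeing the data, 3 of 9 levels moved, and those of genes with a single transcript could not. Shares of the leading transcript moved by more than 1 SD in 2 of 27, both in the authors' posterior mean (Gli2 and Boc). Here too, settings that leave out a library could not count as moved, nor could genes with a single transcript. Depth limits Shh, Gli1 and Hhip most. No paired analysis was possible because both libraries belong to 1 group.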
